A study of Mus musculus with 12 samples.

Results

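Livers of wild-type (WT) mice that had received MET and beta-catenin plasmids (MET/CAT) were compared with livers of WT mice that had received a GFP plasmid, by RNA sequencing of whole liver. The comparison took 6 of the 12 libraries of the series, 3 with MET/CAT and 3 with GFP, and covered the 13871 genes that reached a value of 10 in 3 or more of the 12 libraries. Each MET/CAT mouse received 50 µg of plasmid in 2 mL of saline by rapid (hydrodynamic) injection into the tail vein, at an age of 6 to 8 weeks. The mixture held 5 µg of HSB2, which encodes the sleeping beauty transposase, and 22.5 µg each of the transposons pT3-EF1a-c-MET and pT3-EF1a-DN90-β-Catenin, both with an EF1a promoter. Livers were taken 8 weeks later from mice matched for age and gender on a standard diet, and no dose was stated for the GFP plasmid. The other 6 libraries came from mice with a hepatocyte deletion of Sirt2 (KO) given the same plasmids, and they served the shared estimate of spread and a test of whether the MET/CAT difference depended on Sirt2. Groups follow the sample titles. The treatment field of the labels follows the genotype instead: it gives MET/CAT for all KO and GFP for all WT libraries, against the titles of the WT MET/CAT and KO GFP libraries. Each direction given here therefore depends on the titles being right. Replicates are not stated to be separate mice, and the p-values then refer only to the spread among these libraries.

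MET is the receptor of hepatocyte growth factor, and beta-catenin carries the Wnt signal to the nucleus. The DN90 form lacks the N-terminal end through which beta-catenin is marked for destruction. In the healthy liver Wnt signalling is strongest in hepatocytes around the central vein, where it keeps on genes such as glutamine synthetase, and together the pair of oncogenes gives rise to liver tumours in mice. Hydrodynamic injection reaches part of the hepatocytes, and a whole-liver library mixes their progeny with the remaining hepatocytes and with non-parenchymal and blood cells. In such bulk samples more cells of a type and more RNA per cell cannot be told apart.

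The 6 WT libraries held 19779006 to 24352961 recovered reads, and values are given as normalized reads, that is reads divided by 1 factor per library. In these units 1 read counted for 0.866 to 1.13, and a count of 0 allowed up to 2.60 to 3.40. Hepatocyte markers were abundant in all 6 libraries, and their summed value was 3398709.6, 2784871 and 3430271 in MET/CAT livers, against 2197878, 2293113 and 2235891 in GFP livers. Most of this sum was albumin (Alb), at 2561593, 2205177 and 2640011 in MET/CAT livers, against 1527804, 1500439 and 1592214 in GFP livers. Of the 8 markers 4 had higher and 4 lower values, at a median difference of 0.06 (log2). Xist was read 1216 to 1902 times in the MET/CAT and 1592 to 2492 times in the GFP libraries, while 4 Y-linked genes together had 7 to 12 and 5 to 16 reads. On the first principal component of the 12 libraries, which held 21.96% of the variance, the MET/CAT libraries lay together at −21.13, −20.49 and −24.05. The GFP libraries lay at 9.25, −7.25 and 15.53, and KO GFP replicate 3, which enters the shared spread, stood apart at 88.95. On the second, with 20.58%, the MET/CAT libraries lay at 3.91, −56.91 and −48.39, against 34.19, 59.07 and 14.25 for the GFP libraries. MET/CAT replicate 1 was the one nearest to the GFP livers on this second component. Each library's deviation also followed transcript length (Spearman rho over genes, which are no replicates), with rho at −0.209, 0.173 and 0.108 in MET/CAT and −0.208, −0.334 and 0.014 in GFP libraries.

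Sirt2, the gene deleted in the other mice, was present in every WT library, with 1068, 943 and 908 normalized reads in MET/CAT livers, against 824, 924 and 726 in GFP livers. Among the injected oncogenes, neither Met nor Ctnnb1 differed past the threshold. Met (chromosome 6, 17463800 to 17573980, GRCm38) had 706, 959.6 and 626 normalized reads in MET/CAT livers, against 777, 745 and 836 in GFP livers, and the ranges overlapped (log2 difference −0.06, SE 0.23, adjusted p = 0.92). For Ctnnb1 (chromosome 9, 120929216 to 120960507), which encodes beta-catenin, the values were 1217, 2341 and 2072 normalized reads in MET/CAT livers, against 1544, 1044 and 2210.5 in GFP livers (log2 difference 0.24, SE 0.33, adjusted p = 0.77). Which species the plasmid cDNAs come from was not stated, so reads of the transgenes may or may not fall on the mouse genes. Of 20 measured genes of MET signalling, limma called none, edgeR none and DESeq2 1 lower, and 4 had an unadjusted p under 0.05. Values were higher for 12 and lower for 8, at a median of 0.24 that was −0.02 without GFP replicate 2. Without overlap lay 4 higher and 2 lower, against 10.5% and 10.3% of all genes. An unadjusted p under 0.05 was found for 14.8% of all genes. Gab1, the docking adaptor of the MET receptor, had 188, 120.2 and 101 normalized reads in MET/CAT livers, against 297, 333 and 223 in GFP livers (log2 difference −1.08, adjusted p = 0.0982), lower in each MET/CAT library than in each GFP library. The values of Spry4, a feedback inhibitor of receptor tyrosine kinases, were 139, 10.5 and 30.02 normalized reads in MET/CAT livers, against 149, 118 and 100.5 in GFP livers (log2 difference −1.72, adjusted p = 0.257), with MET/CAT replicate 1 inside the range of the GFP livers. The other two lay higher without overlap. Dusp5, a phosphatase that acts on ERK, had 118, 71.7 and 42.2 normalized reads in MET/CAT livers, against 39.9, 13.6 and 24.3 in GFP livers (log2 difference 1.54, adjusted p = 0.276). Grb2, an adaptor that links receptors to Ras, had 1173, 1199 and 1577 normalized reads in MET/CAT livers, against 1018, 820.4 and 1132 in GFP livers (log2 difference 0.41, adjusted p = 0.319).

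Across all genes, 29 rose and 18 fell in MET/CAT livers (limma, Benjamini-Hochberg adjusted p under 0.05). The 29 are 0.209% and the 18 are 0.13% of the 13871 genes tested, 0.339% in all, and 14.8% of the genes had an unadjusted p under 0.05. All 47 are protein-coding genes, and in all 47 the values of the MET/CAT and GFP libraries did not overlap, as was the case for 20.7% of all genes (10.5% higher and 10.3% lower). The log2 difference was above 1 in size for 46 of them and above 2 for 26, 17 higher and 9 lower, while the median over all genes tested was −0.01. edgeR's quasi-likelihood test called 73 genes (0.526%) and DESeq2 567 (4.09%). The genes that rose by the largest steps are known from activated macrophages (Acod1), neutrophils (Mmp8), metal and stress responses (Mt2), chemokine signalling (Cxcl13) and the fetal liver (Dlk1). Major urinary proteins made up 4 of the 18 genes that fell, and Mup15 and Mup19 had the steepest falls, followed by Nrep. MET/CAT replicate 1 was the MET/CAT library nearest to the GFP livers for 17 of the 29 genes that rose and for 9 of the 18 that fell. With library totals set equal in place of the deposited factors, 71 genes were called, 27 higher and 44 lower, and the median over all genes was −0.12. Of the 47 calls, 45 held without MET/CAT replicate 1, 28 without MET/CAT replicate 2 and 14 without MET/CAT replicate 3. Without GFP replicate 1 just Map3k6, Mt2 and Mup19 stayed called, without GFP replicate 2 these and Tdp2, and 29 calls held without GFP replicate 3. Beside each called gene below, the number of these 6 fits in which its call held is given after its adjusted p.

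**Figure D1:**
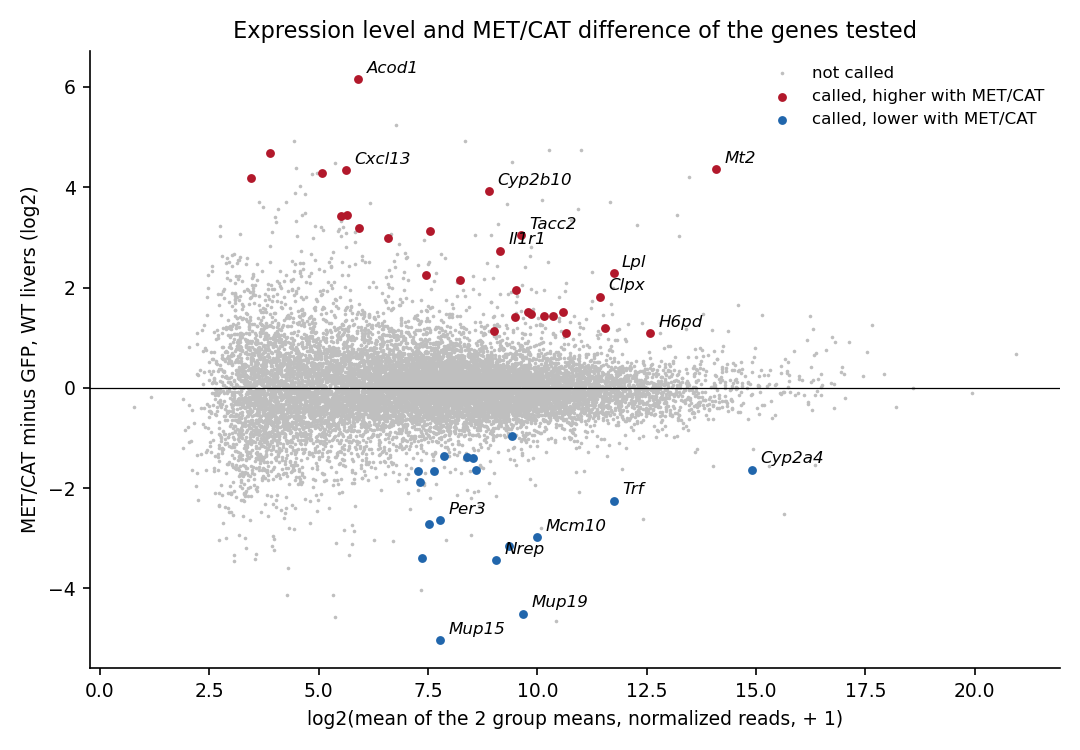
Each point is 1 of the 13871 genes tested, with the expression level on the x axis (log2 of the mean of both group means in normalized reads, plus 1) and the MET/CAT minus GFP difference in WT livers on the y axis (log2). Red points are the 29 genes that rose and blue points the 18 that fell. The called genes lie between the low level of Cdh17 and the high levels of Mt2 and Cyp2a4, and no blue point lies among the lowest genes.

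**Figure D2:**
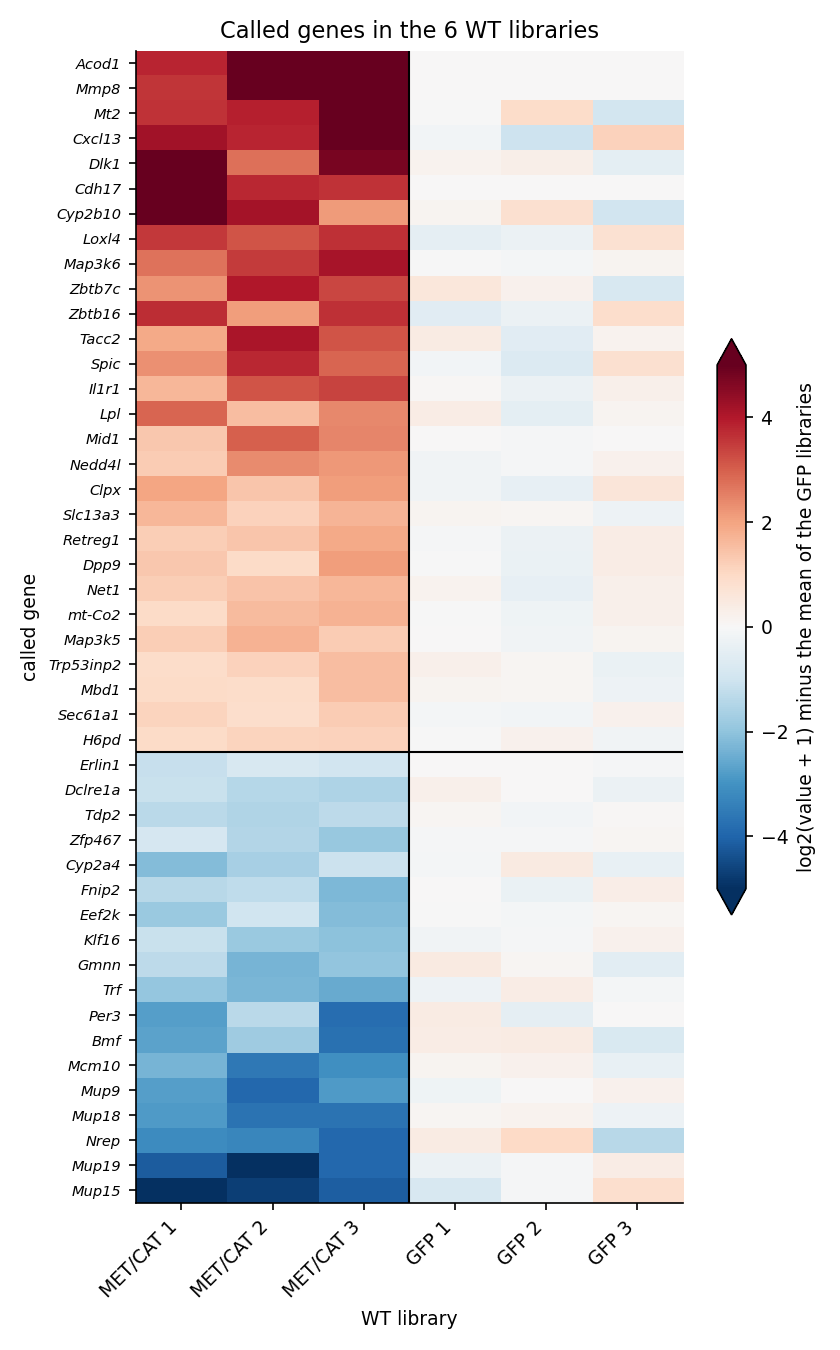
Rows are 46 of the 47 called genes, in order of their difference, and columns the 3 MET/CAT and then the 3 GFP libraries of WT livers. Colour is log2(value + 1) minus the mean of the GFP libraries, and colours stop at 5 log2 units in either direction. MET/CAT replicate 1 is paler than the other MET/CAT libraries for many of the genes in the upper block.

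Sequences upstream of 4 called genes are shown for the genes that lead 3 of the groups described below, namely a metal-responsive gene that rose, a clock gene that fell and 2 urinary protein genes that fell together. They are the 250 bases before the start of the RefSeq gene on GRCm38.p6, on the strand of the gene, 5′ to 3′. For Mt2 (chr8:94172368-94172617, plus strand) the capitals mark matches to the core of the metal response element, TGCACNC or TGCGCNC on either strand, which start 223, 128 and 50 bases before the gene.
Mt2: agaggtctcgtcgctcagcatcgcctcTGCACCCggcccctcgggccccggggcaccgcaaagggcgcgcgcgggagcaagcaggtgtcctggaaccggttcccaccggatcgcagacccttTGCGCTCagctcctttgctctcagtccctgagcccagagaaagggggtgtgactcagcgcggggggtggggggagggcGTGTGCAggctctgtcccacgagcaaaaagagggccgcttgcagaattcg
For Per3 (chr4:151044666-151044915, minus strand) they mark D-boxes, TTATGTAA or TTACGTAA on either strand, the motif of the clock output factors DBP, TEF, HLF and NFIL3, at 205 and 158 bases before the gene.
Per3: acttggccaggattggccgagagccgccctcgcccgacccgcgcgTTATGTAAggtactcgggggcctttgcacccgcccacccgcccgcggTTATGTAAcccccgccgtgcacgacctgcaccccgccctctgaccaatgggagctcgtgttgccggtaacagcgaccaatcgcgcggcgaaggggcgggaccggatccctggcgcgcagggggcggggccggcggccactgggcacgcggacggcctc
For Mup19 (chr4:61782225-61782474, minus strand) and Mup15 (chr4:61439705-61439954, minus strand) they mark the letters TATATAA, 31 and 25 bases before the gene.
Mup19: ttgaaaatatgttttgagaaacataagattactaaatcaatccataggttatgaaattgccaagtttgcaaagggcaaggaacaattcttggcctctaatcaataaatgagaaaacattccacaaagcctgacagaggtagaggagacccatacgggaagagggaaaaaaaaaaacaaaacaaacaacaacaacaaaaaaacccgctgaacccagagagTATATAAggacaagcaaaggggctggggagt
Mup15: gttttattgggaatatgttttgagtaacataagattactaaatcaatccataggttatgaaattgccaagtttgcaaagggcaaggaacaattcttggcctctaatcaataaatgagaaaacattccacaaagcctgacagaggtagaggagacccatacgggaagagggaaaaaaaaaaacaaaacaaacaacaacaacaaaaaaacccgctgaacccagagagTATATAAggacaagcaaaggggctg
Of 32851 such windows, 21.4% held a metal response element core, 0.931% a D-box and 3.04% the TATATAA letters on either strand. A window was found for 33 of the 47 called genes, 20 that rose and 13 that fell. The metal response element core was in 7 of these 20 and 5 of these 13, and in 33.8% of the 10521 tested genes with a window. Per3, which fell, held 3 matches to that core in its printed window, as many as Mt2, and they are not marked there. A D-box was in 1 of the 20 (H6pd) and 1 of the 13 (Per3), and in 0.779% of tested genes. The Mup19 and Mup15 windows were identical at 241 of 244 aligned bases. RefSeq starts differ by some bases from the GENCODE gene ends given elsewhere. These matches describe letters and do not show that a factor binds.

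Genes that beta-catenin is known to control in the liver had mostly higher values in MET/CAT livers, and 1 of them passed the test. Of 23 measured pericentral hepatocyte genes, 21 had higher values, with a median of 0.46 (log2), against 48.6% and −0.01 over all genes. Of the 23, 1 rose (0.209% of all genes) and 9 lay higher without overlap (10.5% of all genes). Slc13a3 (chromosome 2, 165405028 to 165473230), a sodium-coupled carrier of dicarboxylates, had 1442, 994 and 1467 normalized reads in MET/CAT livers, against 499, 487 and 376 in GFP livers. All MET/CAT libraries lay above all GFP libraries (log2 difference 1.51, SE 0.29, adjusted p = 0.0499, 2 of 6 fits). Glul (chromosome 1, 153899944 to 153909723), glutamine synthetase, had 59596, 36972 and 63360.1 normalized reads in MET/CAT livers, against 22829, 16514 and 17994 in GFP livers. It missed the threshold with no overlap (log2 difference 1.45, SE 0.30, adjusted p = 0.0529). For Axin2 (chromosome 11, 108920349 to 108950783), a feedback inhibitor of the Wnt pathway, the values were 160.5, 159 and 202 normalized reads in MET/CAT livers, against 64.8, 32.9 and 73.6 in GFP livers (log2 difference 1.66, SE 0.37, adjusted p = 0.0679). Tbx3, a transcription factor of perivenous hepatocytes, had 1122, 538 and 935 normalized reads in MET/CAT livers, against 347, 248 and 318 in GFP livers (log2 difference 1.45, adjusted p = 0.0679). The Wnt target gene Lgr5 (chromosome 10, 115450311 to 115587780) lay at 84.7, 86.5 and 81.2 normalized reads in MET/CAT livers, against 54.8, 50.99 and 110.0 in GFP livers. The ranges overlapped (log2 difference 0.31, SE 0.38, adjusted p = 0.737). Of 17 measured Wnt targets limma and edgeR called none and DESeq2 2 higher, 4 had an unadjusted p under 0.05, and their median of 0.31 fell between 0.16 and 0.40 when single libraries were left out. Among 21 periportal genes, the counterpart around the portal vein, none was called by limma or edgeR and 1 by DESeq2, none had an unadjusted p under 0.05, and the median was 0.04.

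Genes of the fetal liver and of liver tumours also had higher values, led by Dlk1. Dlk1 (chromosome 12, 109452823 to 109463336), an imprinted membrane protein of hepatoblasts, had 105, 16.9 and 70.05 normalized reads in MET/CAT livers, against 1.99, 2.27 and 0.866 in GFP livers. It rose in every MET/CAT library, by most in replicate 1 (log2 difference 4.28, SE 0.83, adjusted p = 0.0483, 1 of 6 fits). It had 184 reads in all in the MET/CAT livers and 5 in the GFP livers. Afp, the alpha-fetoprotein gene, had 727, 128 and 153 normalized reads in MET/CAT livers, against 65.8, 30.6 and 79.7 in GFP livers (log2 difference 2.14, adjusted p = 0.121). The fetal growth factor gene Igf2 had 48.8, 24.3 and 46.7 normalized reads in MET/CAT livers, against 12.96, 10.2 and 7.80 in GFP livers (log2 difference 1.82, adjusted p = 0.126). For Ly6d, a small surface protein, the values were 806, 70.7 and 203 normalized reads in MET/CAT livers, against 73.8, 39.7 and 32.05 in GFP livers (log2 difference 2.29, adjusted p = 0.126). None of these 4 genes overlapped between the groups except Ly6d, and MET/CAT replicate 1 was the highest library for all of them. Of 17 measured members of the list, 14 had higher values and 1 rose, with a median of 1.01 that was 0.57 without MET/CAT replicate 1. Mean deviations from the GFP mean were 1.71, 0.55 and 0.85 in MET/CAT livers, against 0.37, −0.06 and −0.30 in GFP livers. Cdh17, a cadherin of intestine and liver tumours, had 58 reads in the MET/CAT livers, where the values were 35.9, 12.7 and 11.1, and none in the GFP livers. It was at least 19.9-fold higher against a floor of 3 reads over the GFP group (adjusted p = 0.0473), and its call held in 0 of 6 fits. The GFP livers could not carry Cdh17 past the filter of 10 in 3 libraries, which its MET/CAT values met. The same holds for Acod1 and Mmp8 below.

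Among genes of inflammatory signalling most values were higher and a few passed the test. Of 25 measured genes on a list of interleukin-6 and interleukin-1 signalling, 23 had higher values and 3 rose, with a median of 1.25. The list was written with earlier results of these data known. Map3k6, 1 of the 3, also stands on the list of glucocorticoid responsive genes. Il1r1 (chromosome 1, 40225080 to 40317257), the signalling receptor of interleukin-1, had 414, 1186 and 1392 normalized reads in MET/CAT livers, against 137, 108 and 155 in GFP livers. Each MET/CAT library exceeded every GFP library (log2 difference 2.73, SE 0.39, adjusted p = 0.00966, 4 of 6 fits). Map3k6 (chromosome 4, 133240818 to 133252929), a stress-activated kinase of the same family as Map3k5, had 45.9, 79.1 and 123 normalized reads in MET/CAT livers, against 5.98, 5.67 and 6.93 in GFP livers. It stayed called whichever library was left out (log2 difference 3.43, SE 0.42, adjusted p = 0.00577, 6 of 6 fits). Map3k5 (chromosome 10, 19934472 to 20142753), the kinase ASK1 upstream of JNK and p38, rose as well, with 910.0, 1289.6 and 931 normalized reads in MET/CAT livers, against 389.9, 340.0 and 428 in GFP livers (log2 difference 1.42, adjusted p = 0.00892, 4 of 6 fits). Acod1 (chromosome 14, 103046977 to 103056573), which makes itaconate in activated macrophages, had values of 12.96, 229 and 113 in the MET/CAT libraries and no read in the GFP libraries (adjusted p = 0.0189, 2 of 6 fits). Against a floor of 3 reads over the GFP group it was at least 118.5-fold higher. Osmr, the receptor of oncostatin M, had 76.8, 408 and 193 normalized reads in MET/CAT livers, against 23.9, 24.9 and 41.6 in GFP livers (log2 difference 2.60, adjusted p = 0.0519). The cytokine feedback gene Socs3 had 671, 312 and 175 normalized reads in MET/CAT livers, against 98.7, 44.2 and 30.3 in GFP livers (log2 difference 2.68, adjusted p = 0.077). MET/CAT replicate 1 was the lowest MET/CAT library for Il1r1, Map3k6, Acod1 and Osmr.

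Markers of neutrophils had higher values in 13 of 14 measured cases, with a median of 2.39, the highest of the 48 lists drawn below. Of the 14, 9 lay higher without overlap (10.5% of all genes). The 1 marker with a lower value also lay lower without overlap (10.3% of all genes). Mmp8 (chromosome 9, 7558456 to 7568485), the neutrophil collagenase, had 78 reads in MET/CAT livers, at 10.96, 36.9 and 35.6 normalized reads, and none in GFP livers. It was at least 27.8-fold higher against the same floor (adjusted p = 0.045, 1 of 6 fits), the 1 member that rose, and the 1 of the 47 called genes that edgeR did not call (adjusted p = 0.0600). Clec4d, a lectin receptor of myeloid cells, had 25.9, 63.3 and 43.4 normalized reads in MET/CAT livers, against 1.99, 1.13 and 1.73 in GFP livers (log2 difference 4.03, adjusted p = 0.0504). The granule protein gene Lcn2, which hepatocytes also make in the acute phase, had 707, 6054 and 11643 normalized reads in MET/CAT livers, against 240.3, 623 and 146 in GFP livers (log2 difference 3.71, adjusted p = 0.0696). The summed value of the neutrophil list was 1218, 7383 and 12470.3 in MET/CAT livers, against 395, 903 and 275 in GFP livers, much of it from Lcn2. A further 3 markers of the list stayed below the filter, and none of the 17 lacked reads in all 6 libraries. Ly6g, which marks mature neutrophils, had 0, 5.27 and 0 normalized reads in MET/CAT livers, against 0, 1.13 and 0 in GFP livers. Elane had 5 reads in all in MET/CAT and 11 in GFP livers, and Trem1 had 31 and 5. Macrophage markers had 11 of 20 values higher, a median of 0.04 and no limma call (1 by edgeR, 1 by DESeq2, 3 with an unadjusted p under 0.05). Their summed value was 8540.2, 10449 and 8003 in MET/CAT livers, against 7525, 9281 and 8959.6 in GFP livers. Within it Cd14, the endotoxin co-receptor, had 260.2, 1849.6 and 959.5 normalized reads in MET/CAT livers, against 73.8, 105 and 65.8 in GFP livers (log2 difference 3.26, adjusted p = 0.0523). Among 10 Kupffer cell markers Spic (chromosome 10, 88674772 to 88685015), a transcription factor of iron-recycling macrophages, rose, with 93.7, 266 and 147 normalized reads in MET/CAT livers, against 16.95, 11.3 and 32.9 in GFP livers (log2 difference 2.99, SE 0.48, adjusted p = 0.0188, 2 of 6 fits). Of the 10 markers 7 had lower values, and the summed value was 10321, 8609.9 and 7564 in MET/CAT livers, against 9609, 11603 and 10603 in GFP livers. Lymphocyte markers had lower values in 14 of 16 cases, a median of −0.49 (−0.76 without MET/CAT replicate 2), no call by limma, edgeR or DESeq2 and 1 unadjusted p under 0.05. Their summed value was 293, 461 and 281 in MET/CAT livers, against 436, 433 and 629.7 in GFP livers. The part that cell numbers play in the differences of this and the preceding paragraph was not tested.

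The chemokine Cxcl13 (chromosome 5, 95956951 to 95961068), which attracts B cells, was the called member of 17 measured chemokines. It had 78.7, 60.1 and 139 normalized reads in MET/CAT livers, against 2.99, 1.13 and 8.66 in GFP livers (log2 difference 4.34, SE 0.69, adjusted p = 0.0188, 3 of 6 fits). The list had a median of 1.24 and 12 higher values, and the median was 0.64 without GFP replicate 2 and 1.82 without GFP replicate 1. Cxcl12, the ligand of CXCR4, ran the other way at 2711, 2948 and 2588 normalized reads in MET/CAT livers, against 4543, 4508 and 4742 in GFP livers (log2 difference −0.74, adjusted p = 0.0899). Of 26 measured acute phase proteins, 24 had higher values, with a median of 0.74, and 12 lay higher without overlap (10.5% of all genes). Yet limma and edgeR called none and DESeq2 9, and 15 had an unadjusted p under 0.05 (14.8% of all genes). Fga, a chain of fibrinogen, had 75977, 109821 and 156919.8 normalized reads in MET/CAT livers, against 40507, 35191 and 47080.4 in GFP livers (log2 difference 1.43, adjusted p = 0.0759). Lbp, which hands endotoxin to CD14, had 2122, 5242 and 8059 normalized reads in MET/CAT livers, against 1467, 1575 and 1188 in GFP livers (log2 difference 1.68, adjusted p = 0.0995). The serum amyloid gene Saa2, whose reads may be shared with its near copy Saa1, showed the widest spread, with 928, 24425 and 40489.7 normalized reads in MET/CAT livers, against 211, 1292 and 528 in GFP livers (log2 difference 4.21, adjusted p = 0.104). Mean deviations of the acute phase list were 0.34, 1.44 and 1.85 in MET/CAT livers, against −0.17, 0.46 and −0.29 in GFP livers, so MET/CAT replicate 1 lay below GFP replicate 2. Interferon gamma response genes had a median of 0.24 over 32 with no limma call (10 with an unadjusted p under 0.05, 1 called by edgeR, 4 by DESeq2). The median was 0.07 without MET/CAT replicate 2 and 0.59 without MET/CAT replicate 1. The type I interferon list had a median of −0.01 over 37 with none (7, 0 and 2). Gbp2, an interferon-induced GTPase, had 362, 1415 and 583 normalized reads in MET/CAT livers, against 95.7, 74.8 and 229.5 in GFP livers (log2 difference 2.49, adjusted p = 0.0519).

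**Figure D3:**
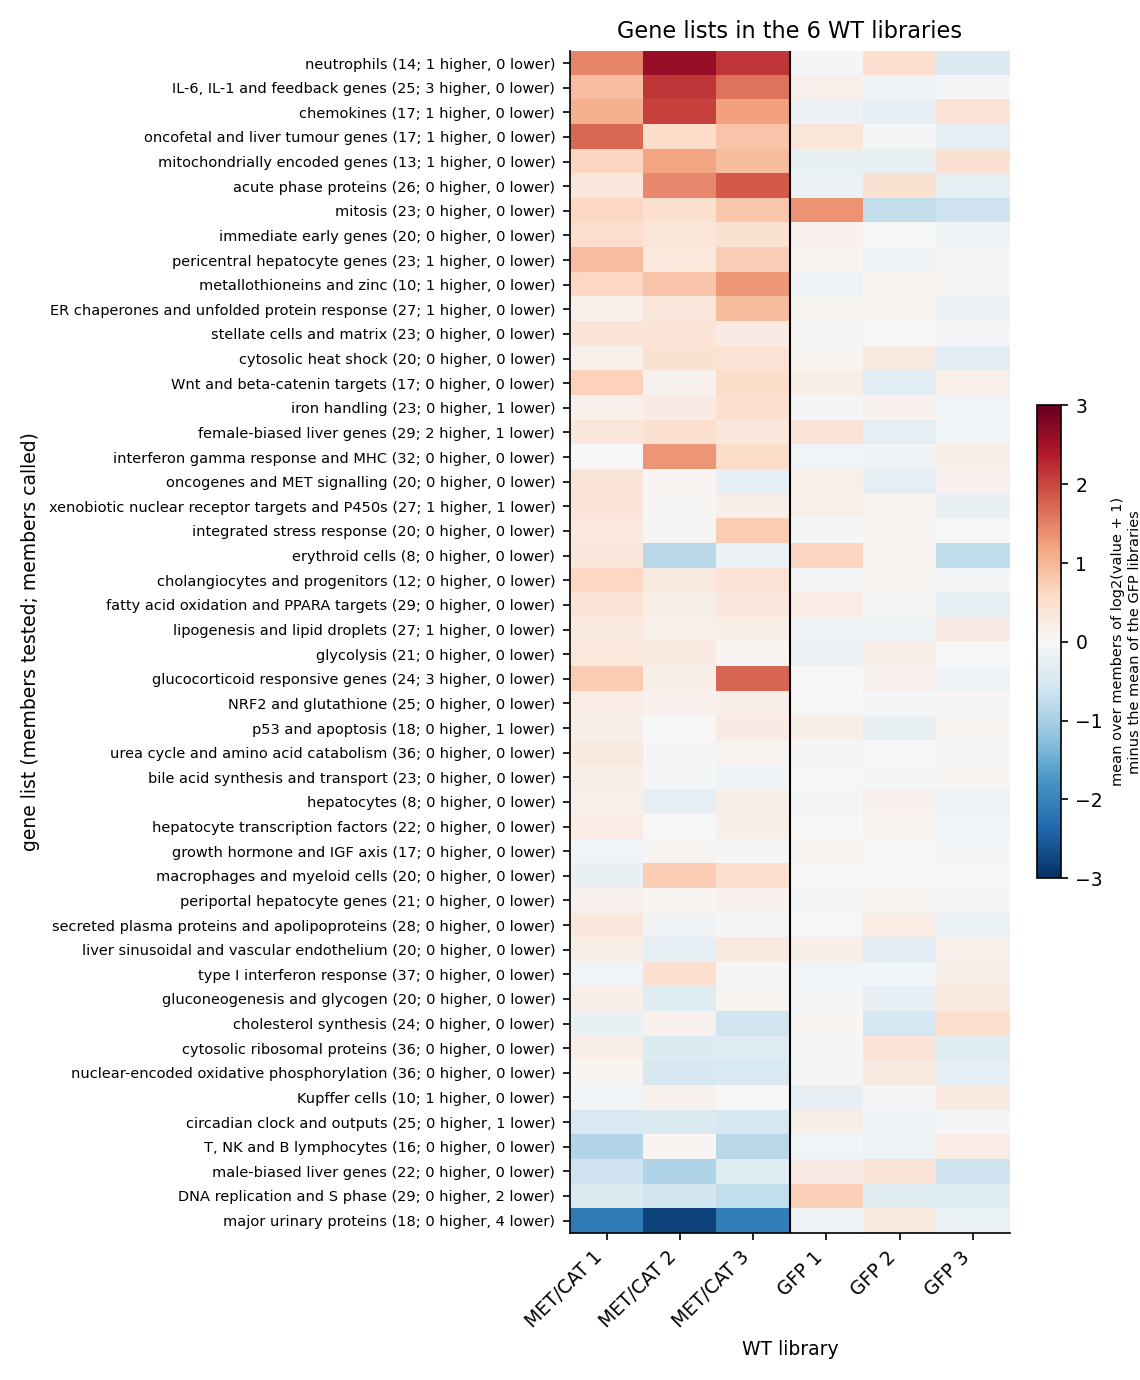
Rows are 48 gene lists in order of their median difference, labelled with the members tested and called, and columns the 3 MET/CAT and then the 3 GFP libraries of WT livers. Colour is the mean over a list's members of log2(value + 1) minus the mean of the GFP libraries. Neutrophil, interleukin and chemokine lists are darkest red in MET/CAT replicate 2 (mean deviations of 2.61, 2.16 and 2.06), the oncofetal list in MET/CAT replicate 1, and major urinary proteins are blue in all 3 MET/CAT libraries, between −2.08 and −2.78.

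Metallothioneins are small proteins that bind zinc and copper, and 1 of the 10 measured genes of metallothioneins and zinc handling rose. Mt2 (chromosome 8, 94172664 to 94173568), whose upstream sequence is printed above, had 16427, 19846 and 63943 normalized reads in MET/CAT livers, against 1344, 2558 and 707 in GFP livers. The lowest MET/CAT library lay far above the highest GFP library, and the call held whichever library was left out (log2 difference 4.35, SE 0.50, adjusted p = 0.00515, 6 of 6 fits). Exons of Mt2 share 73.5% of their bases with the antisense gene Gm45774, for which no value was used here, and without a known strand setting the reads of the 2 cannot be told apart. Mt1 (chromosome 8, 94179082 to 94180327) had 25141, 19459 and 70717 normalized reads in MET/CAT livers, against 8626, 13484 and 9756 in GFP livers, also without overlap (log2 difference 1.64, SE 0.40, adjusted p = 0.0824). The zinc importer gene Slc39a14, which is known to respond to interleukin-6, had 2064, 6095 and 7063 normalized reads in MET/CAT livers, against 1710.2, 1744 and 1408 in GFP livers (log2 difference 1.47, adjusted p = 0.0876). The manganese exporter gene Slc30a10 had 522, 427 and 857 normalized reads in MET/CAT livers, against 173, 190.4 and 471 in GFP livers (log2 difference 1.21, adjusted p = 0.139). Of the 10 genes 8 had higher values.

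Transferrin was the called gene of iron handling. Trf (chromosome 9, 103204001 to 103230444), the iron carrier that hepatocytes secrete, fell to 1458, 1144 and 994 normalized reads in MET/CAT livers, against 4698, 7283 and 5233 in GFP livers (log2 difference −2.25, SE 0.44, adjusted p = 0.0473, 1 of 6 fits). In KO livers the values were 2389, 2976 and 2402 in MET/CAT and 1138, 2149 and 391 in GFP livers, a difference of 1.38 (adjusted p = 0.119), so the GFP livers of the 2 genotypes lay apart. The test of the difference between genotypes gave −3.63 for Trf (unadjusted p = 4.22e-05, adjusted p = 0.19). Exons of Trf share 63.5% of their bases with Gm20425 on the same strand, whose mean value in the 6 libraries was 0. How reads on shared bases were counted was not stated, so the values of Trf may rest on part of its transcript. Tfrc, the receptor that takes up transferrin, had 159, 152 and 210.1 normalized reads in MET/CAT livers, against 640.2, 482 and 337 in GFP livers (log2 difference −1.45, adjusted p = 0.0549). Slc40a1, the iron exporter ferroportin, had 1235, 593 and 833 normalized reads in MET/CAT livers, against 1859, 1809 and 1748 in GFP livers (log2 difference −1.09, adjusted p = 0.0829). All 3 lay lower in every MET/CAT library than in every GFP library (10.3% of all genes). In the same list 7 genes lay higher without overlap (10.5% of all genes). Among these was Lcn2, whose values are given with the neutrophil markers (log2 difference 3.71, adjusted p = 0.0696). Of the 23 measured genes of the list 17 had higher values, at a median of 0.29.

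Major urinary proteins are pheromone carriers that the mouse liver secretes under the control of growth hormone. All 18 measured genes had lower values, 15 of them without overlap (10.3% of all genes), and 4 fell (0.13% of all genes). The median was −2.18. Mup19 (chromosome 4, 61778324 to 61782269) had 83.7, 34.8 and 101 normalized reads in MET/CAT livers, against 1257, 1464 and 1962 in GFP livers (log2 difference −4.50, SE 0.53, adjusted p = 0.00515, 6 of 6 fits). Mup15 (chromosome 4, 61435790 to 61439743) had 3.99, 13.7 and 21.1 normalized reads in MET/CAT livers, against 219, 371 and 683 in GFP livers (log2 difference −5.02, SE 0.72, adjusted p = 0.00966, 4 of 6 fits). Both lay lower by over 10-fold in every MET/CAT library than in any GFP library. In Mup18 the values were 40.9, 22.1 and 22.2 normalized reads in MET/CAT livers, against 317, 332 and 249 in GFP livers (log2 difference −3.40, adjusted p = 0.0157, 3 of 6 fits). Mup9 had 172, 75.9 and 162 normalized reads in MET/CAT livers, against 984, 1174 and 1337 in GFP livers (log2 difference −3.16, adjusted p = 0.0466, 1 of 6 fits). The 4 genes lie in 1 cluster on chromosome 4 and are near-identical, so reads may have been split among them. The sum over the family gave the same order, with 88449, 50666 and 59479.8 in MET/CAT livers, against 189452, 321791 and 209014 in GFP livers. Every MET/CAT library lay under every GFP library in that sum. Leaving out single libraries moved the median between −2.44 and −2.16.

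Other genes with a known sex bias in mouse liver, many of them also steered by growth hormone, had few calls. Of 22 measured male-biased genes 18 had lower values, at a median of −0.50, with no call by limma or edgeR, 3 lower by DESeq2 and 6 with an unadjusted p under 0.05. The median was −1.06 without GFP replicate 3 and −0.24 without GFP replicate 2. The steroid dehydrogenase gene Hsd3b5 had 15.9, 11.6 and 13.3 normalized reads in MET/CAT livers, against 152, 635 and 135 in GFP livers (log2 difference −4.02, adjusted p = 0.107). Nudt7, a peroxisomal hydrolase of coenzyme A, had 2221, 2211 and 1356 normalized reads in MET/CAT livers, against 5946, 7569.8 and 4286 in GFP livers (log2 difference −1.62, adjusted p = 0.0679). Of 29 measured female-biased genes 2 rose (Cyp2b10 and Lpl) and 1 fell (Cyp2a4), and the median was 0.28, or 0.55 without MET/CAT replicate 1. In the growth hormone axis, the feedback gene Cish had 68.8, 88.6 and 33.4 normalized reads in MET/CAT livers, against 375, 416 and 129.9 in GFP livers (log2 difference −2.19, adjusted p = 0.159). Stat5a, a transducer of the hormone's signal, had 206, 581 and 355 normalized reads in MET/CAT livers, against 117, 118 and 144 in GFP livers (log2 difference 1.47, adjusted p = 0.0824). Neither overlapped between the groups. Of the 17 genes of that axis 2 lay higher and 2 lower without overlap (10.5% and 10.3% of all genes), at a median of 0.05. None of the 17 was called by limma or edgeR, 1 by DESeq2, and 4 had an unadjusted p under 0.05 (14.8% of all genes).

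Cytochromes P450 of family 2, which hydroxylate drugs and steroids, were among the genes that rose and that fell. Cyp2b10 (chromosome 7, 25897620 to 25926624), the classical target of the nuclear receptor CAR, had 1830.0, 716 and 176 normalized reads in MET/CAT livers, against 43.9, 69.1 and 19.9 in GFP livers (log2 difference 3.93, SE 0.65, adjusted p = 0.0216, 2 of 6 fits). Its MET/CAT libraries differed among themselves by more than the distance from the lowest of them to the GFP livers. Cyp2b9 and Cyp2b13, female-biased relatives of Cyp2b10, did not enter the test because fewer than 3 of the 12 libraries reached a value of 10. Their reads lay in MET/CAT replicates 1 and 2. Cyp2b9 had 8586, 6216 and 0 normalized reads in the MET/CAT livers, against 0, 0 and 0.866 in the GFP livers. Cyp2b13 had 6738, 2727 and 0 in the MET/CAT livers and no GFP library held a read of it. In the 6 KO libraries Cyp2b9 had 1 read in all and Cyp2b13 none. Cyp2a4 (chromosome 7, 26307169 to 26315088), a steroid hydroxylase, fell to 10112, 14026 and 21412 normalized reads in MET/CAT livers, against 42555, 61598 and 34603 in GFP livers (log2 difference −1.63, SE 0.31, adjusted p = 0.0473, 3 of 6 fits). Its near copy Cyp2a5, with which it may share reads, had 28743, 15304 and 16364 normalized reads in MET/CAT livers, against 59099, 88096 and 34904 in GFP livers (log2 difference −1.55, adjusted p = 0.101). Of 27 measured P450 and xenobiotic genes these were the 2 calls, 1 in each direction.

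Of 27 measured genes of lipid synthesis and storage 1 rose. Lpl (chromosome 8, 68880491 to 68907448), the lipoprotein lipase that adult hepatocytes normally keep low, had 8234, 3194 and 5787 normalized reads in MET/CAT livers, against 1392, 774 and 1201 in GFP livers (log2 difference 2.29, SE 0.43, adjusted p = 0.0445, 2 of 6 fits). Plin5, a lipid droplet coat protein, had 3658, 943 and 2278 normalized reads in MET/CAT livers, against 540.5, 777 and 435 in GFP livers (log2 difference 1.81, adjusted p = 0.0612). Srebf1, the master regulator of lipogenesis, had 3000.2, 3809 and 4333 normalized reads in MET/CAT livers, against 6179, 6545 and 9009.9 in GFP livers (log2 difference −0.96, adjusted p = 0.0722), lower in each MET/CAT library than in each GFP library. Of the called genes outside the lists, 2 belong to metabolism. Fnip2 (chromosome 3, 79455974 to 79567796), a partner of folliculin in nutrient sensing, fell to 220.3, 235 and 120.1 normalized reads, against 576, 449.9 and 726 in GFP livers (log2 difference −1.63, SE 0.29, adjusted p = 0.0301, 2 of 6 fits). H6pd (chromosome 4, 149979475 to 150009023), which makes NADPH inside the endoplasmic reticulum, rose in MET/CAT livers, at 7641, 8537 and 8775 normalized reads, against 3858, 4504 and 3452 in GFP livers (log2 difference 1.08, SE 0.19, adjusted p = 0.0301, 1 of 6 fits). In lists of cholesterol synthesis, fatty acid oxidation, gluconeogenesis, glycolysis, bile acids and the urea cycle limma and edgeR called no gene, and their medians lay between −0.23 and 0.14. DESeq2 called 4 of the 153 genes measured in these 6 lists (4.09% of all genes), and 19 had an unadjusted p under 0.05 (14.8% of all genes).

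Clock genes differed in both directions, and 1 passed the test. Per3 (chromosome 4, 151003652 to 151044665), a negative limb gene of the circadian clock whose upstream D-boxes are printed above, fell to 51.8, 138 and 24.5 normalized reads in MET/CAT livers, against 479, 262 and 363 in GFP livers (log2 difference −2.65, SE 0.47, adjusted p = 0.0301, 2 of 6 fits). Tef, one of the factors that bind D-boxes, had 758, 2048 and 574 normalized reads in MET/CAT livers, against 3403, 3907 and 2134 in GFP livers (log2 difference −1.66, adjusted p = 0.0679). Dbp, another of them and chosen after its values were seen, had 68.8, 649 and 20.01 normalized reads in MET/CAT livers, against 2730.4, 2678 and 2058 in GFP livers (log2 difference −4.65, adjusted p = 0.0824). MET/CAT replicate 2 held the highest MET/CAT value of Per3, Tef and Dbp. Nfil3, which represses through the same motif, had 1336, 356 and 814 normalized reads in MET/CAT livers, against 252, 229 and 234 in GFP livers (log2 difference 1.61, adjusted p = 0.0824). Arntl, the activator of the positive limb, had 199, 54.8 and 291 normalized reads in MET/CAT livers, against 14.96, 10.2 and 30.3 in GFP livers (log2 difference 3.06, adjusted p = 0.081). For all 5 genes the groups did not overlap, and MET/CAT replicate 2 was the MET/CAT library closest to the GFP livers. Of 25 measured genes 15 had an unadjusted p under 0.05, against 14.8% of all genes. The groups did not overlap for 12 of them, 3 higher and 9 lower, against 20.7% of all genes. The hour at which livers were taken was not stated, and its part in these differences was not tested.

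Among 24 measured genes that respond to glucocorticoids 3 rose, Mt2, Map3k6 and Zbtb16, and Mt2 and Map3k6 stand on other lists too. Zbtb16 (chromosome 9, 48654297 to 48836222), a zinc finger repressor strongly induced by glucocorticoids in many cells, had 438, 144 and 429 normalized reads in MET/CAT livers, against 21.9, 27.2 and 61.5 in GFP livers (log2 difference 3.14, SE 0.59, adjusted p = 0.0438, 3 of 6 fits). Fkbp5, a cochaperone of the glucocorticoid receptor, had 3273, 1899 and 6425 normalized reads in MET/CAT livers, against 1119.9, 1151 and 835 in GFP livers (log2 difference 1.74, adjusted p = 0.0504). The median of the list was 0.12, with 13 higher and 11 lower values, and it was −0.20 without MET/CAT replicate 3 and 0.78 without MET/CAT replicate 2.

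**Figure D4:**
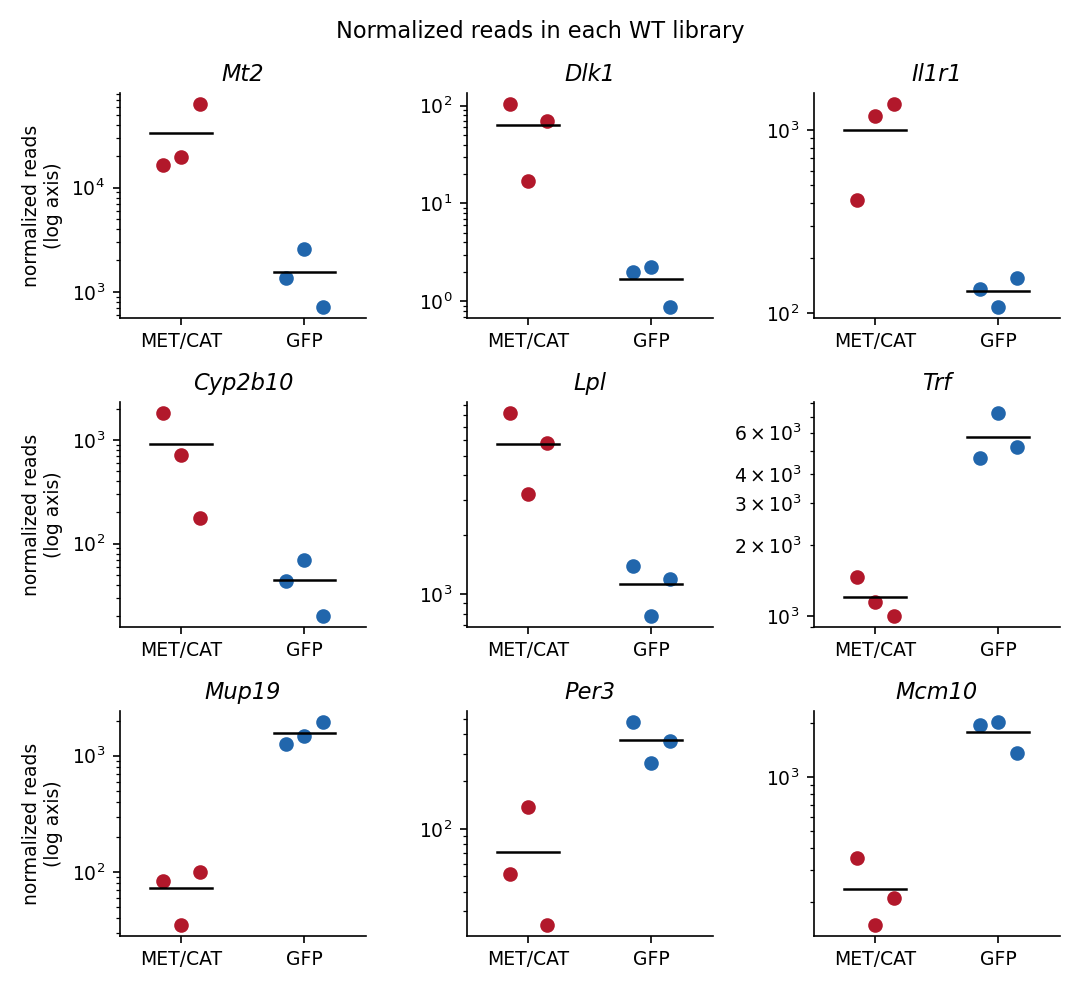
Points are normalized reads of 9 called genes in the 3 MET/CAT (red) and 3 GFP libraries (blue) of WT livers, on log axes that differ between panels, and bars are group means. No panel shows an overlap, and the MET/CAT points of Dlk1 and Cyp2b10 are spread over the widest range.

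Of 27 measured chaperone and unfolded protein response genes of the endoplasmic reticulum 24 had higher values and 1 rose, at a median of 0.37, or 0.60 without MET/CAT replicate 1. The called gene was Sec61a1 (chromosome 6, 88503579 to 88518905), the pore of the protein translocation channel. It had 2205, 1907 and 2487 normalized reads in MET/CAT livers, against 957, 939 and 1199.6 in GFP livers (log2 difference 1.09, SE 0.18, adjusted p = 0.0252, 3 of 6 fits). Retreg1 (chromosome 15, 25843180 to 25973687), a receptor for autophagy of the reticulum, had 1868, 2078 and 2922 normalized reads in MET/CAT livers, against 757, 640.3 and 1022 in GFP livers (log2 difference 1.50, SE 0.27, adjusted p = 0.0301, 2 of 6 fits). Erlin1, a membrane protein of the reticulum that helps degrade inositol trisphosphate receptors, fell, with 405, 528 and 474 normalized reads in MET/CAT livers, against 929, 921 and 884 in GFP livers (log2 difference −0.97, adjusted p = 0.0393, 2 of 6 fits). Genes of protein turnover outside the lists were called as well. The ubiquitin ligase genes Nedd4l (chromosome 18, 64887705 to 65217828), which controls sodium channels, and Mid1 (chromosome X, 169685199 to 170005736), which binds microtubules, rose. Nedd4l had 705, 1515 and 1302 normalized reads in MET/CAT livers, against 256, 281 and 338 in GFP livers (log2 difference 1.94, SE 0.26, adjusted p = 0.00887, 4 of 6 fits). Mid1 had 142, 437 and 298 normalized reads in MET/CAT livers, against 55.8, 52.1 and 55.4 in GFP livers (log2 difference 2.26, SE 0.36, adjusted p = 0.0188, 3 of 6 fits), and an antisense gene overlaps 14.2% of its exon bases. In both, MET/CAT replicate 2 was the highest library.

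Most transcripts encoded in mitochondrial DNA had higher values in MET/CAT livers. The test of their share of reads could not give a p under 0.05 with 3 libraries per group. Genes encoded in mitochondrial DNA took 3.36%, 5.83% and 4.41% of the reads in MET/CAT livers, against 2.33%, 1.76% and 3.68% in GFP livers. The means were 4.53% ± 1.24 and 2.59% ± 0.987 (SD, n = 3 each), a difference of 1.94 percentage points (two-sided exact permutation test p = 0.2, where 0.1 is the smallest that 3 against 3 can give). Of the 13 genes 12 had higher values, 11 of them without overlap (10.5% of all genes), and 1 rose. That gene, mt-Co2, a subunit of cytochrome c oxidase, had 1361, 2093 and 2342 normalized reads in MET/CAT livers, against 682, 604 and 819 in GFP livers (log2 difference 1.43, SE 0.24, adjusted p = 0.0213, 2 of 6 fits). Another subunit gene, mt-Co3, had 638, 667 and 841 normalized reads in MET/CAT livers, against 340.1, 335 and 349.9 in GFP livers (log2 difference 1.05, adjusted p = 0.0548). Clpx (chromosome 9, 65294260 to 65330658), the unfoldase of the ClpXP protease in the mitochondrial matrix, rose, with 4634, 3112 and 5087 normalized reads in MET/CAT livers, against 1045, 891 and 1799.9 in GFP livers (log2 difference 1.82, SE 0.27, adjusted p = 0.015, 3 of 6 fits). Nuclear genes of oxidative phosphorylation lay slightly on the other side of 0. Of 36 measured, 32 had lower values at a median of −0.26 (−0.44 without MET/CAT replicate 1 and −0.15 without GFP replicate 2), none was called by limma, edgeR or DESeq2, and none had an unadjusted p under 0.05.

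Genes of DNA replication had mostly lower and those of mitosis mostly higher values. Of 29 measured replication genes 24 had lower values and 2 fell, at a median of −0.50 that was −0.22 without GFP replicate 1. Mcm10 (chromosome 2, 4989714 to 5012791), which helps load and activate the replication helicase, had 352, 148 and 211 normalized reads in MET/CAT livers, against 1966, 2042 and 1369 in GFP livers (log2 difference −2.98, SE 0.40, adjusted p = 0.00887, 4 of 6 fits). Gmnn (chromosome 13, 24751845 to 24761923), geminin, the inhibitor of helicase loading by Cdt1, had 96.7, 47.5 and 60.04 normalized reads in MET/CAT livers, against 326, 258 and 165 in GFP livers (log2 difference −1.87, SE 0.34, adjusted p = 0.0324, 2 of 6 fits). Cdt1 itself had 57.8, 15.8 and 31.1 normalized reads in MET/CAT livers, against 173, 50.99 and 71.03 in GFP livers (log2 difference −1.45, adjusted p = 0.233). Of 23 measured mitosis genes 21 had higher values at a median of 0.61, with none called by limma, edgeR or DESeq2 and 1 unadjusted p under 0.05. Mki67, the proliferation marker, had 81.7, 144 and 108 normalized reads in MET/CAT livers, against 129.6, 19.3 and 32.9 in GFP livers (log2 difference 1.29, adjusted p = 0.45), so GFP replicate 1 was inside the MET/CAT range. Mean deviations of the mitosis list were 0.61, 0.49 and 0.82 in MET/CAT livers, against 1.35, −0.72 and −0.62 in GFP livers, and its median was 1.63 without GFP replicate 1 and 0.29 without GFP replicate 3. A pair of DNA repair enzymes fell, Tdp2, which frees DNA ends from topoisomerase, and Dclre1a, which acts on crosslinks between strands. Tdp2 (chromosome 13, 24831679 to 24842153) had 190.4, 169 and 195 normalized reads in MET/CAT livers, against 512, 444 and 499.8 in GFP livers (log2 difference −1.39, SE 0.19, adjusted p = 0.00887, 5 of 6 fits). Dclre1a (chromosome 19, 56529167 to 56548222) had 154, 124 and 113 normalized reads in MET/CAT livers, against 402, 335 and 273 in GFP livers (log2 difference −1.35, SE 0.22, adjusted p = 0.0216, 2 of 6 fits).

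In the list of p53 and apoptosis, 1 of 18 measured genes fell. Bmf (chromosome 2, 118528757 to 118549687), a BH3-only activator of cell death, had 45.9, 86.5 and 21.1 normalized reads in MET/CAT livers, against 383, 389.8 and 173 in GFP livers (log2 difference −2.72, SE 0.47, adjusted p = 0.0278, 3 of 6 fits). The cell cycle inhibitor gene Cdkn1a had 2467, 164 and 3759 normalized reads in MET/CAT livers, against 145, 74.8 and 57.2 in GFP livers (log2 difference 3.74, adjusted p = 0.0856), with MET/CAT replicate 2 near the GFP livers. Fas, a death receptor, had 339.9, 788 and 1201 normalized reads in MET/CAT livers, against 261, 269 and 236 in GFP livers (log2 difference 1.42, adjusted p = 0.0971), higher in every MET/CAT library.

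The remaining called genes belong to no list. Nrep (chromosome 18, 33437019 to 33464029), a small protein named for nerve regeneration, fell to 90.7, 82.2 and 52.3 normalized reads in MET/CAT livers, against 1071, 1589 and 306 in GFP livers (log2 difference −3.44, SE 0.50, adjusted p = 0.00966, 4 of 6 fits). Tacc2 (chromosome 7, 130577438 to 130764785), a coiled-coil protein of the centrosome, had 533, 2452 and 1298 normalized reads in MET/CAT livers, against 190.5, 96.3 and 163 in GFP livers (log2 difference 3.04, SE 0.44, adjusted p = 0.00966, 4 of 6 fits). Zbtb7c (chromosome 18, 75820178 to 76148564), a zinc finger transcription factor, had 49.8, 169 and 108 normalized reads in MET/CAT livers, against 14.96, 11.3 and 5.20 in GFP livers (log2 difference 3.20, SE 0.56, adjusted p = 0.0301, 1 of 6 fits). In Tacc2 and Zbtb7c, MET/CAT replicate 2 was the highest and replicate 1 the lowest of the MET/CAT libraries. Loxl4, a lysyl oxidase that crosslinks collagen, had 93.7, 72.8 and 103 normalized reads in MET/CAT livers, against 4.99, 5.67 and 12.99 in GFP livers (log2 difference 3.45, adjusted p = 0.0163, 3 of 6 fits), with no overlap. Among 23 stellate cell and matrix genes limma and edgeR called none, DESeq2 called 2 higher and 1 lower, 9 had an unadjusted p under 0.05, and the median was 0.35. Eef2k (chromosome 7, 120842831 to 120907450), the kinase that slows translation elongation, had 81.7, 148 and 65.6 normalized reads in MET/CAT livers, against 295, 275 and 319.6 in GFP livers (log2 difference −1.67, SE 0.29, adjusted p = 0.0301, 2 of 6 fits). The zinc finger genes Klf16 (chromosome 10, 80567124 to 80577321) and Zfp467 (chromosome 6, 48427697 to 48445825) fell as well. Klf16 had 106, 63.3 and 54.5 normalized reads in MET/CAT livers, against 202, 221 and 269 in GFP livers (log2 difference −1.67, SE 0.30, adjusted p = 0.0301, 1 of 6 fits). Zfp467 had 293, 192 and 140.1 normalized reads in MET/CAT livers, against 512, 511 and 561 in GFP livers (log2 difference −1.40, SE 0.27, adjusted p = 0.0473, 1 of 6 fits). The last 4 called genes rose by 1.14 to 1.47 (log2), and their means ± SD (n = 3 each) follow in normalized reads. Each adjusted p is followed by the number of fits as before. They were Dpp9, a dipeptidyl peptidase that restrains inflammasomes (1378 ± 553 in MET/CAT and 481 ± 122 in GFP livers, adjusted p = 0.0301, 3 of 6 fits), Net1, an activator of the GTPase RhoA (1655 ± 248 and 619 ± 138, adjusted p = 0.0301, 2 of 6 fits), Trp53inp2, an autophagy regulator (4145 ± 929 and 1801 ± 360.3, adjusted p = 0.0301, 1 of 6 fits), and Mbd1, which binds methylated DNA (712 ± 178 and 319 ± 47.8, adjusted p = 0.0438, 1 of 6 fits).

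Lists of hepatocyte transcription factors, secreted plasma proteins, ribosomal proteins, immediate early genes, the integrated stress response, heat shock, NRF2, endothelium, bile duct and red blood cells held no limma call among 211 measured members. In these 10 lists edgeR called 1 gene (0.526% of all genes) and DESeq2 12 (4.09% of all genes). An unadjusted p under 0.05 was found for 29 of the 211, against 14.8% of all genes. Cebpa, a factor of hepatocyte differentiation, had 13425, 6439.7 and 4803 normalized reads in MET/CAT livers, against 16183, 20657 and 15445 in GFP livers (log2 difference −1.21, adjusted p = 0.0897). Its relative Cebpd, which rises in the acute phase, had 293, 395 and 530.3 normalized reads in MET/CAT livers, against 132, 134 and 106 in GFP livers (log2 difference 1.67, adjusted p = 0.101). Hnf4a, the central factor of hepatocyte identity, had 16384, 12782 and 18376 normalized reads in MET/CAT livers, against 7782, 10917 and 9054 in GFP livers (log2 difference 0.77, adjusted p = 0.129). None of these 3 overlapped between the groups. Of the 22 measured hepatocyte transcription factors 6 lay higher and 1 lower without overlap, against 10.5% and 10.3% of all genes.

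The same comparison in KO livers addressed whether these differences depended on Sirt2. In KO livers 174 genes were called, 1.25% of those tested. Of the 47 genes called in WT livers, 44 had the same sign in KO livers, against 49.9% of all genes, and 14 were also called there, 9 higher and 5 lower. Among these 14 were Acod1, Clpx, Cxcl13, Dlk1, Fnip2, Mid1, Mt2, Mup15, Mup19, Nedd4l, Nrep, Per3 and Spic. The difference was smaller in KO livers for 40 of the 47, and the genes had been chosen by their WT values. The median of its size was 2.26 in WT livers, and 1.44 in KO livers when signed by the WT direction. Mt2 differed by 4.35 in WT and 4.20 in KO livers, Cxcl13 by 4.34 and 5.64, Nrep by −3.44 and −3.50, and Per3 by −2.65 and −2.75. Those with the opposite sign were Trf, H6pd (1.08 in WT and −0.09 in KO livers) and Sec61a1 (1.09 and −0.28).

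The test of the difference between the genotypes called no gene by limma or edgeR and 155 (1.27%) by DESeq2, while 2153 genes, 15.5%, had an unadjusted p under 0.05. Among the 47 genes called in WT livers, 22 had an unadjusted p under 0.05 in this test. These genes had been chosen by their WT difference, which is itself a part of this test. A share above that of all genes was therefore favoured in advance, and the count does not show a dependence on Sirt2. Among the smallest p of all genes, each at an adjusted p of 0.19, were those of Zfp791, Trf, Etfb and Dnajc30. Zfp791, a zinc finger gene, had 31.9, 52.7 and 87.8 normalized reads in MET/CAT livers, against 17.95, 5.67 and 8.66 in GFP livers of WT mice. In KO mice it had 9.63, 14.6 and 48.8 in MET/CAT and 129, 145 and 113 in GFP livers. Etfb, which passes electrons from fatty acid oxidation to the respiratory chain, had 306, 178 and 116 normalized reads in MET/CAT livers, against 808, 1228 and 573 in GFP livers of WT mice. In KO mice it had 352, 588 and 342 in MET/CAT and 131, 261 and 57.9 in GFP livers. Zfp791 was thus higher in WT and lower in KO livers with MET/CAT, and Etfb lower in WT and higher in KO livers. Dnajc30, a mitochondrial cochaperone, differed by −0.85 in WT and 0.97 in KO livers. Lpl differed by 2.29 in WT and 0.06 in KO livers (unadjusted p = 0.00282 for the difference between the genotypes).

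**Figure D5:**
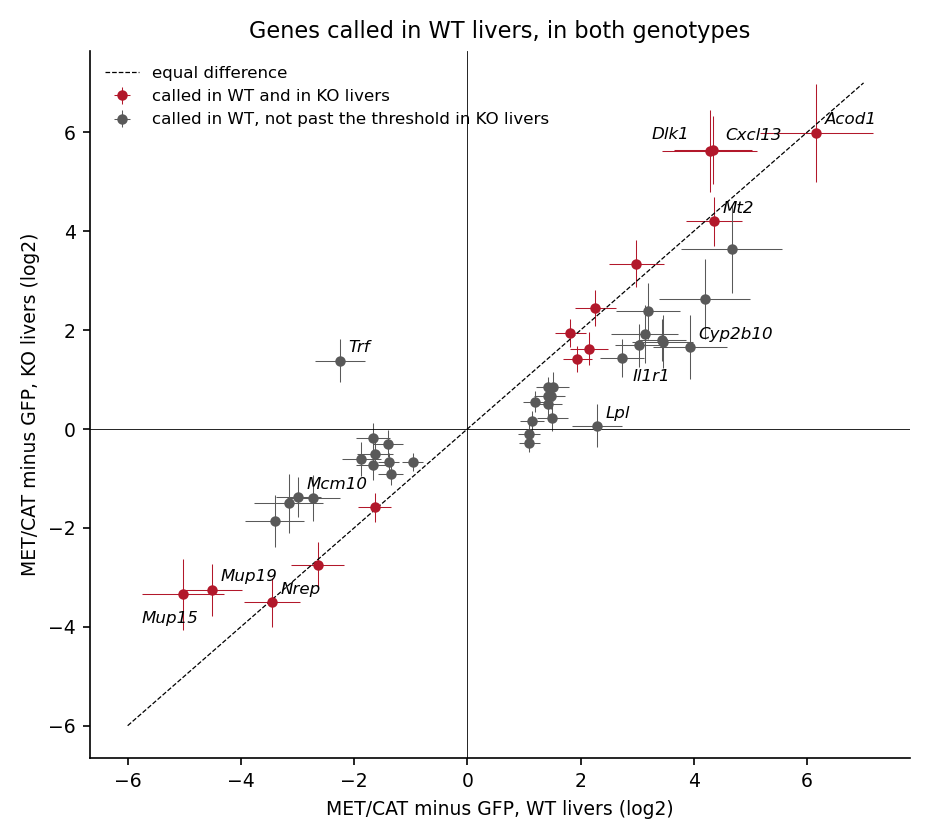
Points are the 47 genes called in WT livers, with their MET/CAT minus GFP difference in WT livers on the x axis and in KO livers on the y axis (log2, bars are 1 SE of each). Red points are the 14 genes also called in KO livers. Most points lie between the dashed line of equal difference and 0 on the y axis, and Trf stands alone in the upper left with −2.25 in WT and 1.38 in KO livers.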

How the data were processed

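The deposited table held 1 value per gene and library for 12 libraries of total RNA from whole liver cells, sequenced by Novogene per the labels' protocols. Reads were processed with HISAT2 2.0.4 and HTSeq 0.11.2 on GRCm38, per the submitters' processing notes. No annotation, strand setting or scaling tool was stated. The unit is a normalized signal, in which the authors divided gene counts by 1 factor per library: dividing each deposited column by its smallest step gave whole reads for 100% of values (tolerance 0.1 reads, largest departure 0.000579). In WT MET/CAT replicate 1 and WT GFP replicate 1 the step was within 0.5% of 1, where the values are close to whole numbers by themselves. The table listed 47263 genes, 23020 of them with no read, and 47114 symbols were found in GENCODE M21, which gave the gene coordinates. Promoter sequences came from RefSeq.

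From the deposited values, log2(value + 1) was fitted with limma 3.58.1 in R 4.3.3 (4 group means, 12 libraries, empirical Bayes with a mean-variance trend, no block). Genes that reached 10 in 3 or more libraries were kept, and p-values were adjusted by Benjamini-Hochberg over these 13871 genes, with 0.05 as threshold. A gene below 10 in all WT GFP libraries, such as Acod1, Mmp8, Cdh17, Dlk1 or Cxcl13, could be tested only because other libraries were higher. Fold changes on the log2(value + 1) scale understate changes of low genes. Counts of 0 allow up to 3 reads, a limit that covers counting error only. Total reads of the 12 libraries were 18208879 to 24352961. The members, lists and tests were chosen with earlier results of these data known, and lists were described by counts and medians, not tested. Per group, up to 15 called genes in each direction with a mean of at least 100 were to be given with values, and per list up to 5 called members or, with none called, 4 with the smallest p. Other members of lists, Socs3, Dbp, Cyp2b9 and Cyp2b13 were chosen after their values were seen, and so were the values of called genes beyond that rule. Alternatives were other pseudocounts, filters and scalings, edgeR 4.0.16, DESeq2 1.42.0, a replicate block, array weights, a length correction, and leaving out libraries. The fits were tested on simulated data in which all genes shared the same dispersion and no library stood apart. That test does not cover the spread among these libraries. Replicate numbers did not pair the WT libraries. Reads of near-identical genes (Mup, Saa, Mt, Cyp2a and Cyp2b families) may have been split or shared. Of the called genes and of the genes with the smallest p for the difference between the genotypes, 1 each is not reported here.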

Additional observations from a re-analysis of the deposited data

How the results depend on the processing

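The number of genes called in WT livers was 47, and it stayed within 1.5 times of that with pseudocounts of 0.5 and 5, with no filter, with a stricter filter, with TMM scaling and in a fit of the 6 WT libraries alone (42 to 54). It was 81 with quantile normalization, 71 with equal library totals, 73 with edgeR, 567 with DESeq2, 160 without KO GFP replicate 3 in the fit, 2615 with array quality weights and 124 with the length trend removed. Leaving out single WT libraries gave 3 to 372 calls, fewest without GFP replicate 1 and most without MET/CAT replicate 1. Of the 47 genes 46 were also called by edgeR, 47 by DESeq2, 47 with the length trend removed, 40 with equal library totals and 27 in the 6 WT libraries alone. The test of the difference between the genotypes called 0 genes, 155 with DESeq2, 2 without KO GFP replicate 3, 1374 with array quality weights and 0 to 4 when single WT libraries were left out. With the replicate number as a block 64 genes were called in WT livers, 41 of the 47 among them, and 2 for the difference between the genotypes. The same-numbered MET/CAT and GFP libraries deviated with correlations of −0.014, −0.148 and 0.003, so they share a number and no pairing was used. Of the genes named by the fixed rules, the small log2 differences of Met and Ctnnb1 changed sign. That of Met, −0.06, was 0.0081 with array quality weights and −0.24 to 0.068 over the fits that left out 1 WT library. That of Ctnnb1, 0.24, was −0.031 to 0.53 over those fits. Equal library totals moved the median over all genes to −0.12, and list medians between −0.12 and 0.12 are read against that shift. The cause of these changes was not tested. With 3 libraries per group and 19779006 to 24352961 reads, a library with no read of a gene allows up to 2.60 to 3.40 normalized reads, so genes at that level could not be compared.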
